A study of Mus musculus with 2 samples.

Results

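Immune checkpoint genes encode ligand and receptor pairs through which tumour, myeloid and stromal cells restrain lymphocytes. Cd274 (PD-L1) and Pdcd1lg2 (PD-L2) are ligands of the receptor Pdcd1 (PD-1), whereas Cd80 and Cd86 bind the activating receptor Cd28 and the inhibitory receptor Ctla4. Lag3, Havcr2 (TIM-3) and Tigit are further inhibitory receptors of activated T and NK cells, and Havcr2 is also known from macrophages and dendritic cells. Ido1 encodes an enzyme that opens the kynurenine pathway of tryptophan breakdown, which restrains T cells, and interferon-gamma is a known inducer of both Ido1 and Cd274.

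The 10 genes described here, Ido1, Cd274, Pdcd1lg2, Cd80, Cd86, Pdcd1, Ctla4, Lag3, Havcr2 and Tigit, were taken by name from the 28000 features measured by single-cell RNA-seq in prostate tumours of mice. All 10 had a feature and were detected in both libraries. The ligands and Ido1 were described in epithelial and myeloid cells and the receptors in lymphoid cells, within each library.

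Each genotype was measured in 1 library, made with 10x Genomics 3′ v3 chemistry from tissue dissociated with collagenase and TrypLE. The DoubleTg library (hHGFtg:H11hMET/+:PBCre4), labelled prostatic adenocarcinoma, came from mice with a human HGF transgene expressed throughout the body. A human MET transgene (hMETtg) is switched on in these mice by Cre recombinase under the probasin promoter, which is active in prostate epithelium. The TripleTg library, labelled prostatic carcinoma, came from mice with both transgenes, the same Cre driver and also the Ctnnb1 L(Ex3)/+ allele, from which the recombinase removes exon 3 and leaves a stabilised β-catenin. Immune and stromal cells therefore carry the HGF transgene but are not the intended cells of the recombinase in either genotype. The number of animals behind each library and their age are not given for these samples in the sources used here.

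The DoubleTg library held 10598 cells and the TripleTg library 9492 cells after filtering (more than 200 but fewer than 7000 genes, mitochondrial share below 15%), with medians of 16761 and 20097 unique molecular identifiers (UMIs, each marking 1 captured RNA molecule). The libraries shared 29 cell barcodes among the kept cells. With 1 library per genotype no difference between genotypes has a replicate check or a test, and genotype, animal and library cannot be told apart. A level is the UMIs of a gene summed over the cells of a class per 1000000 UMIs of that class (CPM). Intervals in brackets are 95% intervals that cover counting error only, and a ratio is TripleTg over DoubleTg on the log2 scale.

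Cells were clustered in each library without the 10 genes and the related lists used below, and classes were named from marker genes. Epithelial-like cells numbered 7002 in DoubleTg and 6674 in TripleTg, and 6 of 7 epithelial markers had a UMI in at least 50% of these cells in both libraries. They comprised 5015 and 4801 luminal-like, 1860 and 1263 basal-like and 127 and 610 seminal vesicle-like cells. The luminal-like name rests on 8 of 10 luminal markers in DoubleTg and on 4 of 10 in TripleTg, Krt8, Krt18 and Cd24a among them. Macrophage-like cells numbered 275 and 430 and dendritic-like cells 96 and 47. Clusters without a name held 1455 DoubleTg and 1333 TripleTg cells, and no cluster took a neutrophil, B cell or mast cell name.

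RNA of immune marker genes was more widespread in the TripleTg epithelial-like cells. A UMI of Ptprc, the pan-leukocyte gene CD45, was present in 0.728% (0.543 to 0.957) of DoubleTg and 4.67% (4.18 to 5.21) of TripleTg epithelial-like cells. The 5 immune markers summed to 117 CPM in DoubleTg and 1003 CPM in TripleTg epithelial-like cells, mostly from Cd52, which had a UMI in 26.4% and 80% of them. Cd52 was thus far more widespread than Ptprc, and whether its RNA came from immune cells was not tested. Fibroblast-like cells, at median depths of 7889.5 and 5699 UMIs, serve below as a class in which Ido1 and the lymphoid receptors are not expected. Lag3 is an exception, since fibroblast-like cells had 12 and 10.4 CPM of it against 0.605 and 0.492 CPM in epithelial-like cells and held 25.6% and 22.8% of its UMIs, and they were not read as background for Lag3. For Ido1 they are a high reference. Their DoubleTg level of 13.5 CPM (11.2 to 16) was above those of macrophage-like (0.619 CPM, 0.075 to 2.24), dendritic-like (2.93 CPM, 0.952 to 6.84) and endothelial-like cells (3.15 CPM, 1.27 to 6.49).

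On the GRCm38 assembly (mm10) the ligand genes lie in pairs. Cd274 (chr19:29367455-29388095, plus strand) and Pdcd1lg2 (chr19:29410919-29471161, plus strand) are neighbours, and Cd86 (chr16:36603869-36666081, minus strand) and Cd80 (chr16:38455561-38496335, plus strand) share a chromosome with Tigit (chr16:43648867-43664146, minus strand). Ido1 lies at chr8:24584136-24597009 on the minus strand. Pdcd1 (chr1:94038305-94052553, minus strand), Ctla4 (chr1:60887000-60915832, plus strand), Lag3 (chr6:124904361-124911705, minus strand) and Havcr2 (chr11:46454935-46481255, plus strand) complete the set. These positions are the gene spans of the GENCODE annotation, and the counts do not separate exons or transcripts.

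**Figure D1:**
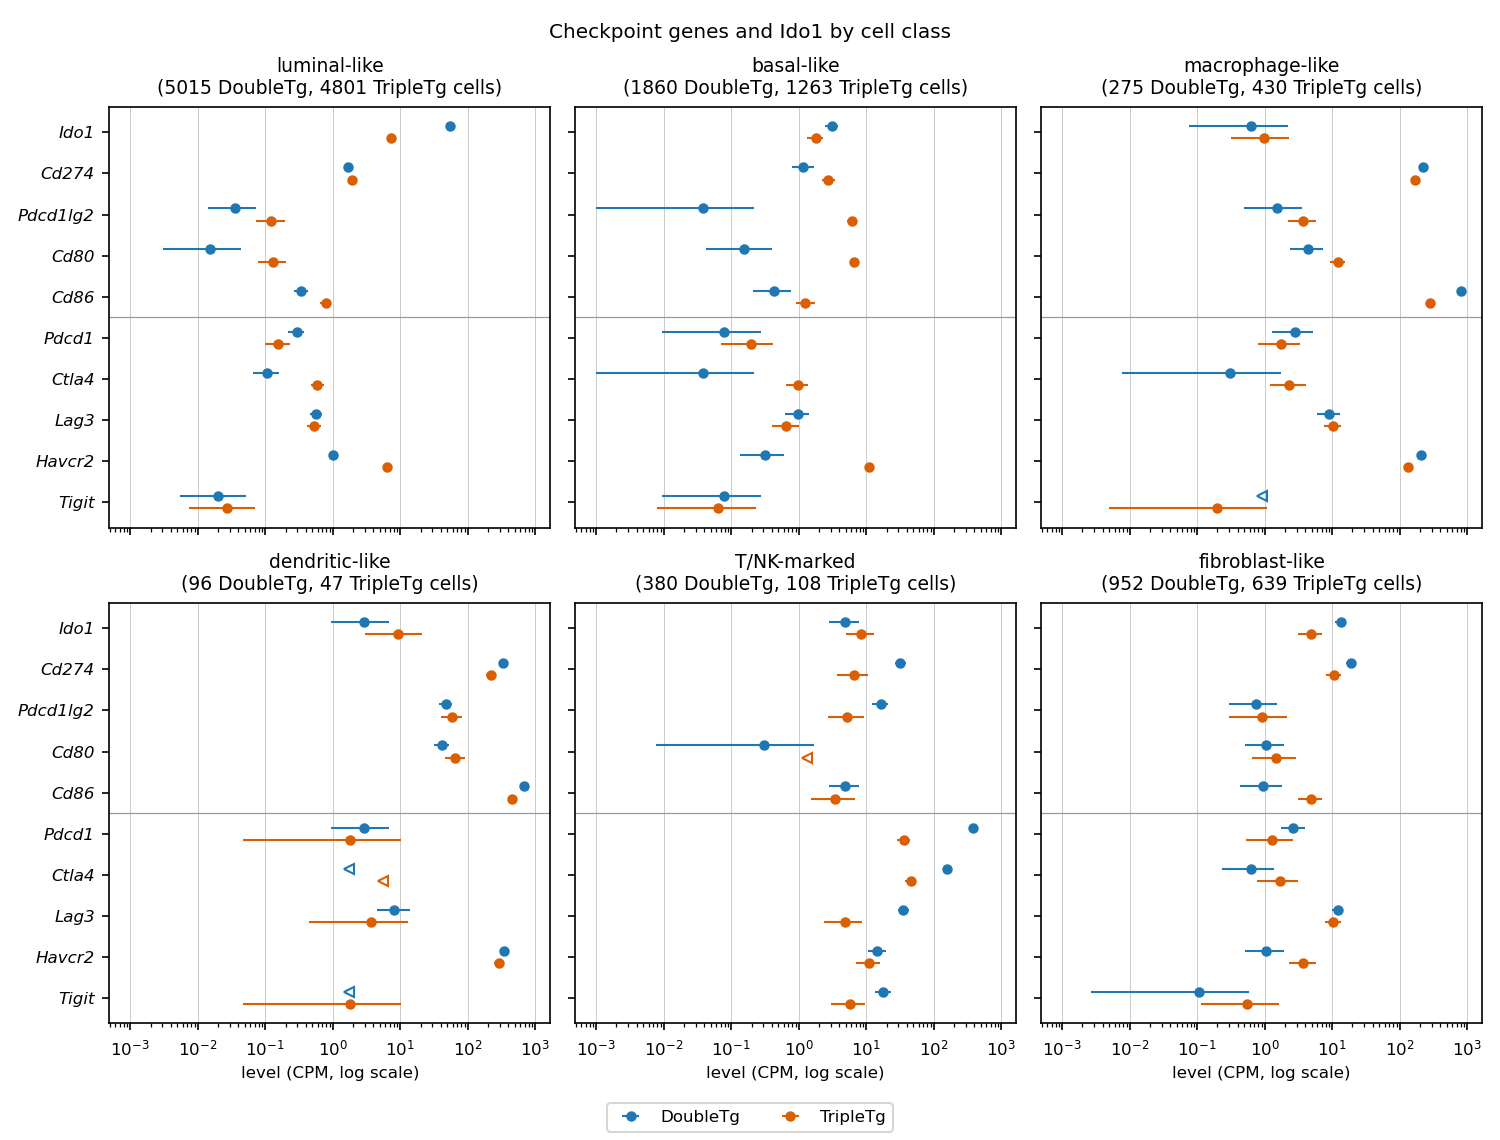
Level of the 10 genes (rows) in 6 cell classes of the DoubleTg (blue) and TripleTg (orange) libraries, in CPM on a log axis, with exact 95% Poisson intervals as bars. Open triangles mark a sum of 0 UMIs, drawn at the level of 3 counts. Ido1 is highest in DoubleTg luminal-like cells, Cd86 in macrophage-like and dendritic-like cells, and Pdcd1 and Ctla4 in DoubleTg T/NK-marked cells.

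The first comparison asked where Ido1 was expressed and how the epithelial cells of the 2 genotypes differed in it. Epithelial-like cells held 97.5% of the 11249 DoubleTg Ido1 UMIs and 92.6% of the 1422 TripleTg Ido1 UMIs. They also held most UMIs of all genes, 229941495 of 256880958 in DoubleTg and 205323881 of 229655259 in TripleTg. The level of Ido1 in epithelial-like cells was 47.7 CPM (46.8 to 48.6) in DoubleTg and 6.41 CPM (6.07 to 6.77) in TripleTg. Over all kept cells it was 43.8 CPM and 6.19 CPM, so the TripleTg share was close to that of all UMIs. The TripleTg level was 7.43-fold lower, a log2 ratio of -2.89 (-2.98 to -2.81).

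Luminal-like cells carried most of this RNA, at 54.1 CPM (53.1 to 55.1) in DoubleTg and 7.39 CPM (6.95 to 7.84) in TripleTg, a log2 ratio of -2.87. A UMI of Ido1 was present in 27.2% of DoubleTg luminal-like cells (25.9 to 28.4) at a median depth of 35622 UMIs and in 8.71% of TripleTg luminal-like cells at 25646 UMIs. With each cell thinned to 2000 UMIs these shares were 6.29% (5.63 to 7) and 1.38% (1.07 to 1.76), after 68 and 27 shallower cells had been left out. The thinned share in fibroblast-like cells was 1.44% (0.721 to 2.56) in DoubleTg and 0.737% (0.201 to 1.88) in TripleTg. Only the DoubleTg luminal-like share therefore stood above the fibroblast-like share beyond counting error, and the interval of the TripleTg luminal-like level, 6.95 to 7.84 CPM, just overlapped that of TripleTg fibroblast-like cells, 4.81 CPM (3.15 to 7.05). The same TripleTg luminal-like level was above those of macrophage-like (0.968 CPM, 0.314 to 2.26) and endothelial-like cells (0.773 CPM, 0.0936 to 2.79). It was not above that of dendritic-like cells (9.12 CPM, 2.96 to 21.3).

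Basal-like cells had 3.08 CPM of Ido1 (2.44 to 3.83) in DoubleTg and 1.78 CPM (1.34 to 2.32) in TripleTg. Both values were under the fibroblast-like levels of 13.5 CPM and 4.81 CPM. The thinned shares of 0.825% and 0.32% were also under the fibroblast-like shares above. The basal-like intervals overlapped those of endothelial-like cells, at 3.15 CPM (1.27 to 6.49) in DoubleTg and 0.773 CPM (0.0936 to 2.79) in TripleTg. In DoubleTg the basal-like level was above that of macrophage-like cells, 0.619 CPM (0.075 to 2.24). Whether the basal-like values are background cannot be told from these classes. Seminal vesicle-like cells had 23.3 CPM (19.3 to 27.8) in DoubleTg and 6.42 CPM (5.51 to 7.44) in TripleTg. Of the 3 genes with 30 UMIs in that class, Ido1 was at least 2-fold lower in TripleTg, where 17.1% of 10243 genes were, and Cd274 and Cd86 at least 2-fold higher, where 8.04% were (25.2% in all). Cd274 (3 and 32 UMIs) and Cd86 (0 and 33 UMIs) reached 30 in TripleTg alone. In myeloid cells, where interferon can induce the enzyme, few Ido1 UMIs were found. Macrophage-like cells held 2 UMIs in DoubleTg (0.619 CPM) and 5 in TripleTg (0.968 CPM). Dendritic-like cells held 5 in each library, at 2.93 CPM (0.952 to 6.84) in DoubleTg and 9.12 CPM (2.96 to 21.3) in TripleTg. The TripleTg dendritic-like interval included the TripleTg epithelial-like level of 6.41 CPM.

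Ido1 was spread unevenly over the luminal-like cells. One DoubleTg cell held 372 UMIs of Ido1, and the 700 epithelial-like cells with the most Ido1 held 91.2% of its UMIs in this class. The highest TripleTg cell had 40 UMIs.

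Among the 14 epithelial-like DoubleTg clusters the level ranged from 0 to 628 CPM, with 7 clusters at 10 CPM or more. The highest was cluster 1, 135 luminal-like cells led by Rsad2, Ifit3b and Ifit1, all known interferon-response genes, at 628 CPM (608 to 648). It held 33.5% of the epithelial-like Ido1 UMIs, and 65.9% of its cells had at least 1. Clusters 7 (Aldh1a3, Msln, Psca) and 2 (Prr9, Srpx, Tcaf2) followed with 96.6 CPM (93.6 to 99.7) and 80.4 CPM (76.7 to 84.3), and the proliferating cluster 23 (Ube2c, Hist1h2ap, Stmn1) had 73.2 CPM (64.7 to 82.6). The intervals of clusters 2 and 23 overlapped, whereas the others were apart. At the other end, clusters 8 (Sbpl, Sbp, Scgb2b27) and 9 (Spink5, Cxcl17, Slc5a8) had 1.21 CPM and 2.22 CPM, and the 49 cells of cluster 17 (Atp6v1g3, Foxi1, Ctgf) had no UMI, with a limit of 4.69 CPM at 3 counts.

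In TripleTg 2 of 14 epithelial-like clusters reached 10 CPM. Cluster 17, 148 luminal-like cells led by Ifit3, Ifit1 and Rsad2, was again the highest, at 54.9 CPM (48 to 62.5), and cluster 2 (Fam213a, Tmem45b, Msln) had 13.9 CPM (12.7 to 15.2). The remaining luminal-like clusters lay between 0.785 and 6.14 CPM. The interferon-response clusters thus had the highest Ido1 level in both libraries, 628 CPM against 54.9 CPM. Without these clusters the epithelial-like levels were 32.5 CPM in DoubleTg and 5.41 CPM in TripleTg, and the log2 ratio was -2.59 (-2.68 to -2.50), so the difference did not rest on them.

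**Figure D2:**
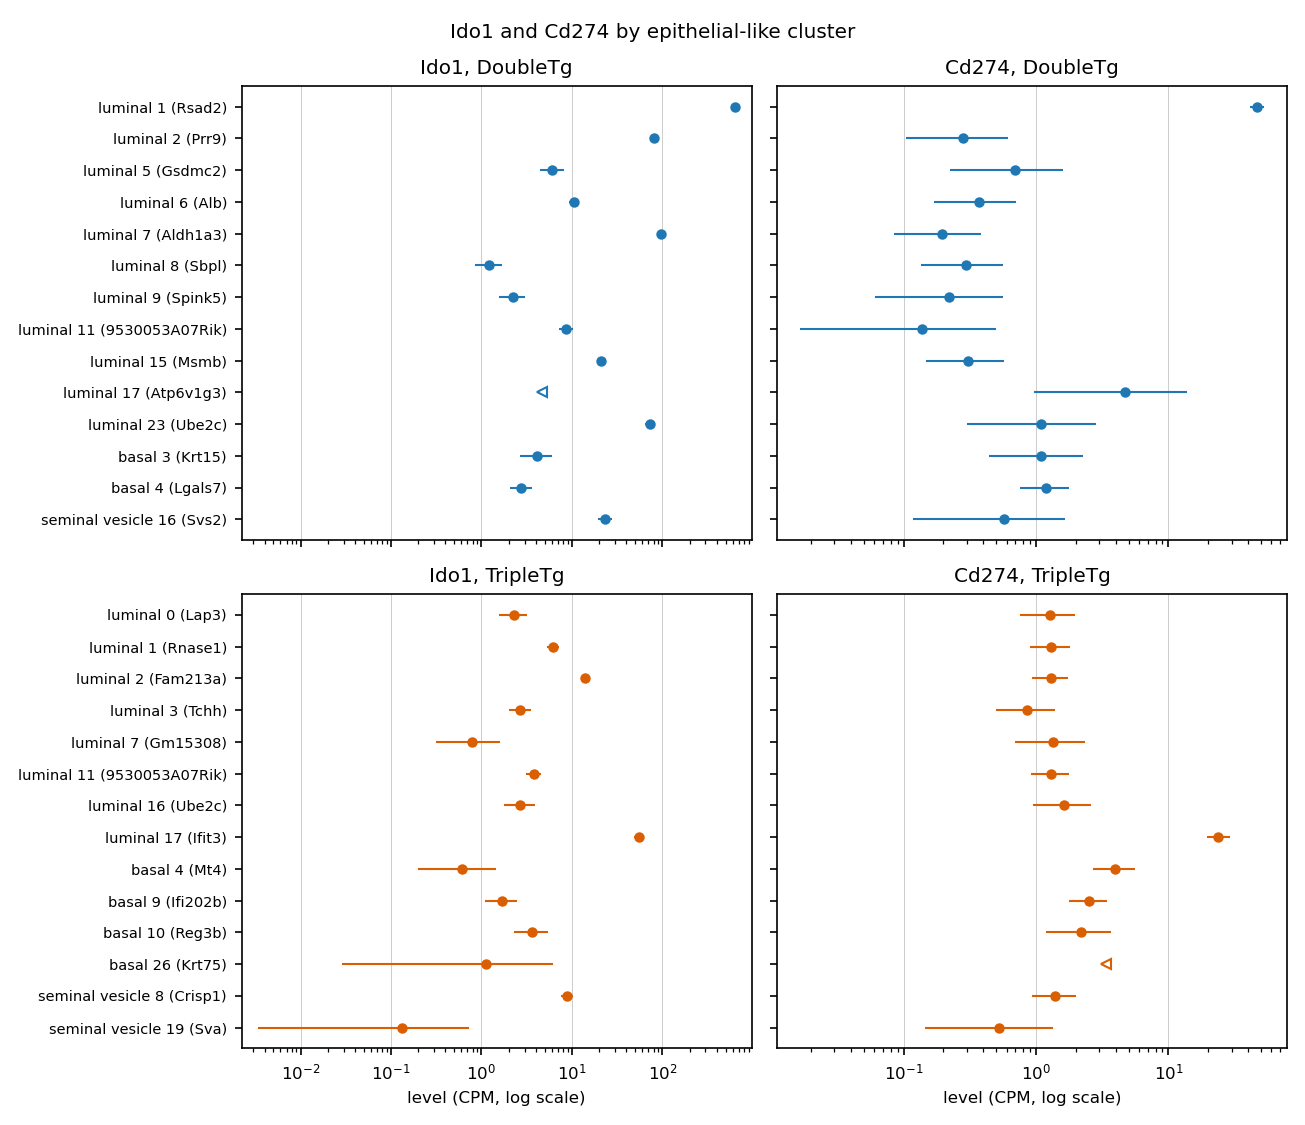
Level of Ido1 (left) and Cd274 (right) in each epithelial-like cluster of DoubleTg (top) and TripleTg (bottom), in CPM on a log axis with exact 95% Poisson intervals. Clusters carry their class, number and leading gene, and open triangles mark a sum of 0 UMIs at the level of 3 counts. The clusters led by Rsad2 (DoubleTg) and Ifit3 (TripleTg) are the highest for both genes, at 628 and 54.9 CPM of Ido1 and 46.5 and 23.8 CPM of Cd274.

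Cd274, the PD-1 ligand, was low in epithelial-like cells and nearly alike in both libraries, with 1.59 CPM (1.43 to 1.76) in DoubleTg and 1.93 CPM (1.74 to 2.13) in TripleTg, a log2 ratio of 0.28 (0.07 to 0.49). This similarity of the class levels covered a different distribution. The DoubleTg interferon-response cluster had 46.5 CPM (41.1 to 52.4) and held 74.5% of the epithelial-like Cd274 UMIs, against 23.8 CPM (19.4 to 29) and 25% in TripleTg. In the other epithelial-like cells Cd274 was at 0.415 CPM in DoubleTg and 1.48 CPM in TripleTg, a log2 ratio of 1.83 (1.49 to 2.18). That TripleTg excess stood beside the larger share of TripleTg epithelial-like cells with a Ptprc UMI given above. Ptprc was found in 8.14% of the 307 TripleTg cells with Cd274 and in 4.51% of the cells without, and the part of immune RNA in the excess was not tested.

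Ido1 and Cd274 were found in the same luminal-like cell in 58 DoubleTg cells, where the product of the 2 shares gives 28, and in 37 TripleTg cells, where it gives 18. Cells with Cd274 carried Ido1 in 56.3% of cases in DoubleTg and 17.9% in TripleTg. Deeper cells show more genes of any kind, and the interferon-response clusters were the highest for both genes. No product within clusters is given, so the excess over the product is a description.

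The remaining ligands were nearly silent in DoubleTg epithelium. Epithelial-like DoubleTg cells held 8 UMIs of Pdcd1lg2 and 7 of Cd80 among 229941495 UMIs, against 211 and 224 in TripleTg. The log2 ratios were 4.88 (3.88 to 6.12) for Pdcd1lg2 and 5.16 (4.10 to 6.49) for Cd80. Cd86 had 0.344 CPM in DoubleTg and 0.916 CPM in TripleTg, both under the fibroblast-like levels of 0.955 and 4.81 CPM. Its thinned shares of 0.102% and 0.242% were under 0.654% and 0.552% of fibroblast-like cells. Without thinning the shares were 0.957% and 2.4%, above 0.735% and 1.72% of the shallower fibroblast-like cells. Whether RNA from other cells made up the epithelial-like Cd86 UMIs was not tested.

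Of the 10 genes, 9 had at least 30 UMIs in 1 library of the epithelial-like class, with Tigit left out. At least 2-fold higher in TripleTg were Pdcd1lg2, Cd80, Cd86, Ctla4 and Havcr2 (5 of 9), where 17.7% of the 15492 genes measured at this depth were, and Ido1 alone was at least 2-fold lower (1 of 9), against 15.6% of genes, 33.3% in all being 2-fold apart. The median log2 ratio of the 9 was 1.41, beside -0.08 over the 15492 genes. Pdcd1lg2 (8 DoubleTg UMIs), Cd80 (7) and Ctla4 (22) reached 30 UMIs in TripleTg alone, so none of them could come out 2-fold lower. Of the 5 higher genes, Ctla4 at 0.677 CPM and Cd86 lay under the TripleTg fibroblast-like level in CPM (1.67 CPM for Ctla4). Fibroblast-like cells are shallower than epithelial-like cells (medians of 5699 and 25595 UMIs in TripleTg), and a Ctla4 UMI was present in 0.939% of the former and 1.99% of the latter, or in 0.184% and 0.151% at 2000 UMIs per cell. How far RNA from other cells made up these UMIs was not tested. The values for Pdcd1lg2, Cd80 and Havcr2 are given by class below. Over all kept cells, where all 10 genes could be counted, 1 was higher (14.7% of 16400 genes) and 3 were lower (14.2%).

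TripleTg basal-like cells were the source of most Pdcd1lg2 and Cd80. Pdcd1lg2 had 1 UMI in DoubleTg basal-like cells (0.0389 CPM) and 189 in TripleTg (6.12 CPM, 5.28 to 7.06), a log2 ratio of 7.30 (4.80 to 12.61). Cd80 had 4 UMIs (0.156 CPM) and 203 UMIs (6.58 CPM, 5.70 to 7.55), a log2 ratio of 5.40 (4.02 to 7.29). These cells held 65.4% of all Pdcd1lg2 and 60.6% of all Cd80 UMIs of the TripleTg library, more than its macrophage-like and dendritic-like cells together. TripleTg fibroblast-like cells had 0.926 CPM of Pdcd1lg2 and 1.48 CPM of Cd80, and endothelial-like cells had no UMI of either.

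Havcr2, a receptor known from T and myeloid cells, was also higher in TripleTg basal-like cells, which held 14.8% of its UMIs in that library, against 40.6% in luminal-like and 29.7% in macrophage-like cells. It had 8 UMIs (0.312 CPM) in DoubleTg and 337 UMIs (10.9 CPM, 9.78 to 12.1) in TripleTg basal-like cells, a log2 ratio of 5.13 (4.14 to 6.35). In luminal-like cells it had 1.01 CPM (0.875 to 1.16) and 6.28 CPM (5.88 to 6.70), a log2 ratio of 2.64. Of the 7 genes with 30 UMIs in luminal-like cells, Havcr2, Cd86 and Ctla4 were at least 2-fold higher (18.2% of 14876 genes) and Ido1 at least 2-fold lower (16.7%, 34.9% in all). Ctla4, with 21 and 87 UMIs, reached 30 in TripleTg alone. The thinned Havcr2 share of luminal-like cells was 0.182% in DoubleTg and 1.32% (1.02 to 1.69) in TripleTg, beside 0.131% and 0.184% of fibroblast-like cells.

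In the basal-like class 7 of the 10 genes had 30 UMIs in 1 library, and 6 of them (Cd274, Pdcd1lg2, Cd80, Cd86, Ctla4 and Havcr2) were at least 2-fold higher in TripleTg, where 20.2% of 12204 genes were. None of the 7 was at least 2-fold lower, against 12.9% of genes, 33.1% in all being 2-fold apart. Pdcd1lg2, Cd80, Havcr2, Cd86 and Ctla4 reached 30 UMIs in TripleTg alone, so none of them could come out 2-fold lower. Cd274 had 1.17 CPM (0.788 to 1.67) in DoubleTg and 2.75 CPM (2.20 to 3.40) in TripleTg. Cd86 had 11 and 39 UMIs and Ctla4 1 and 30 UMIs, and for both the TripleTg basal-like level of 1.26 CPM and 0.972 CPM was under that of fibroblast-like cells.

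Within the TripleTg basal-like class the 3 genes differed by cluster. Cluster 9 (Ifi202b, Calcb, Ivl; 598 cells) had 5.30 CPM (4.22 to 6.58) of Pdcd1lg2, 9.24 CPM (7.79 to 10.9) of Cd80 and 17.8 CPM (15.7 to 20) of Havcr2. Cluster 4 (Mt4, Igfbp2, Ptn; 306 cells) had more Pdcd1lg2, 9.47 CPM (7.48 to 11.8), with 5.54 CPM (4.04 to 7.41) of Cd80 and only 2.34 CPM (1.41 to 3.65) of Havcr2. Cluster 10 (Reg3b, Reg1, Reg3g; 335 cells) was low in all 3, at 1.88, 1.10 and 3.92 CPM. The order of clusters 4 and 9 was thus opposite for Pdcd1lg2 and for Cd80 and Havcr2, and none of these pairs of intervals overlapped. A small cluster of proliferating cells, 26 (Krt75, Ube2c, Mki67; 24 cells), reached 20.2 CPM (12 to 31.9) for both Pdcd1lg2 and Havcr2, and DoubleTg basal-like clusters 3 and 4 had at most 1 Pdcd1lg2 UMI each.

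Ptprc did not mark the cells with these ligands. Among TripleTg epithelial-like cells it was present in 5.66% of the 159 cells with Pdcd1lg2 and 5.85% of the 171 cells with Cd80, beside 4.65% and 4.64% of the cells without. For Havcr2 the values were 6.95% of 863 cells and 4.34%. By contrast 40.6% of the 32 TripleTg epithelial-like cells with Pdcd1 and 57.1% of the 7 with Tigit had a Ptprc UMI.

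**Figure D3:**
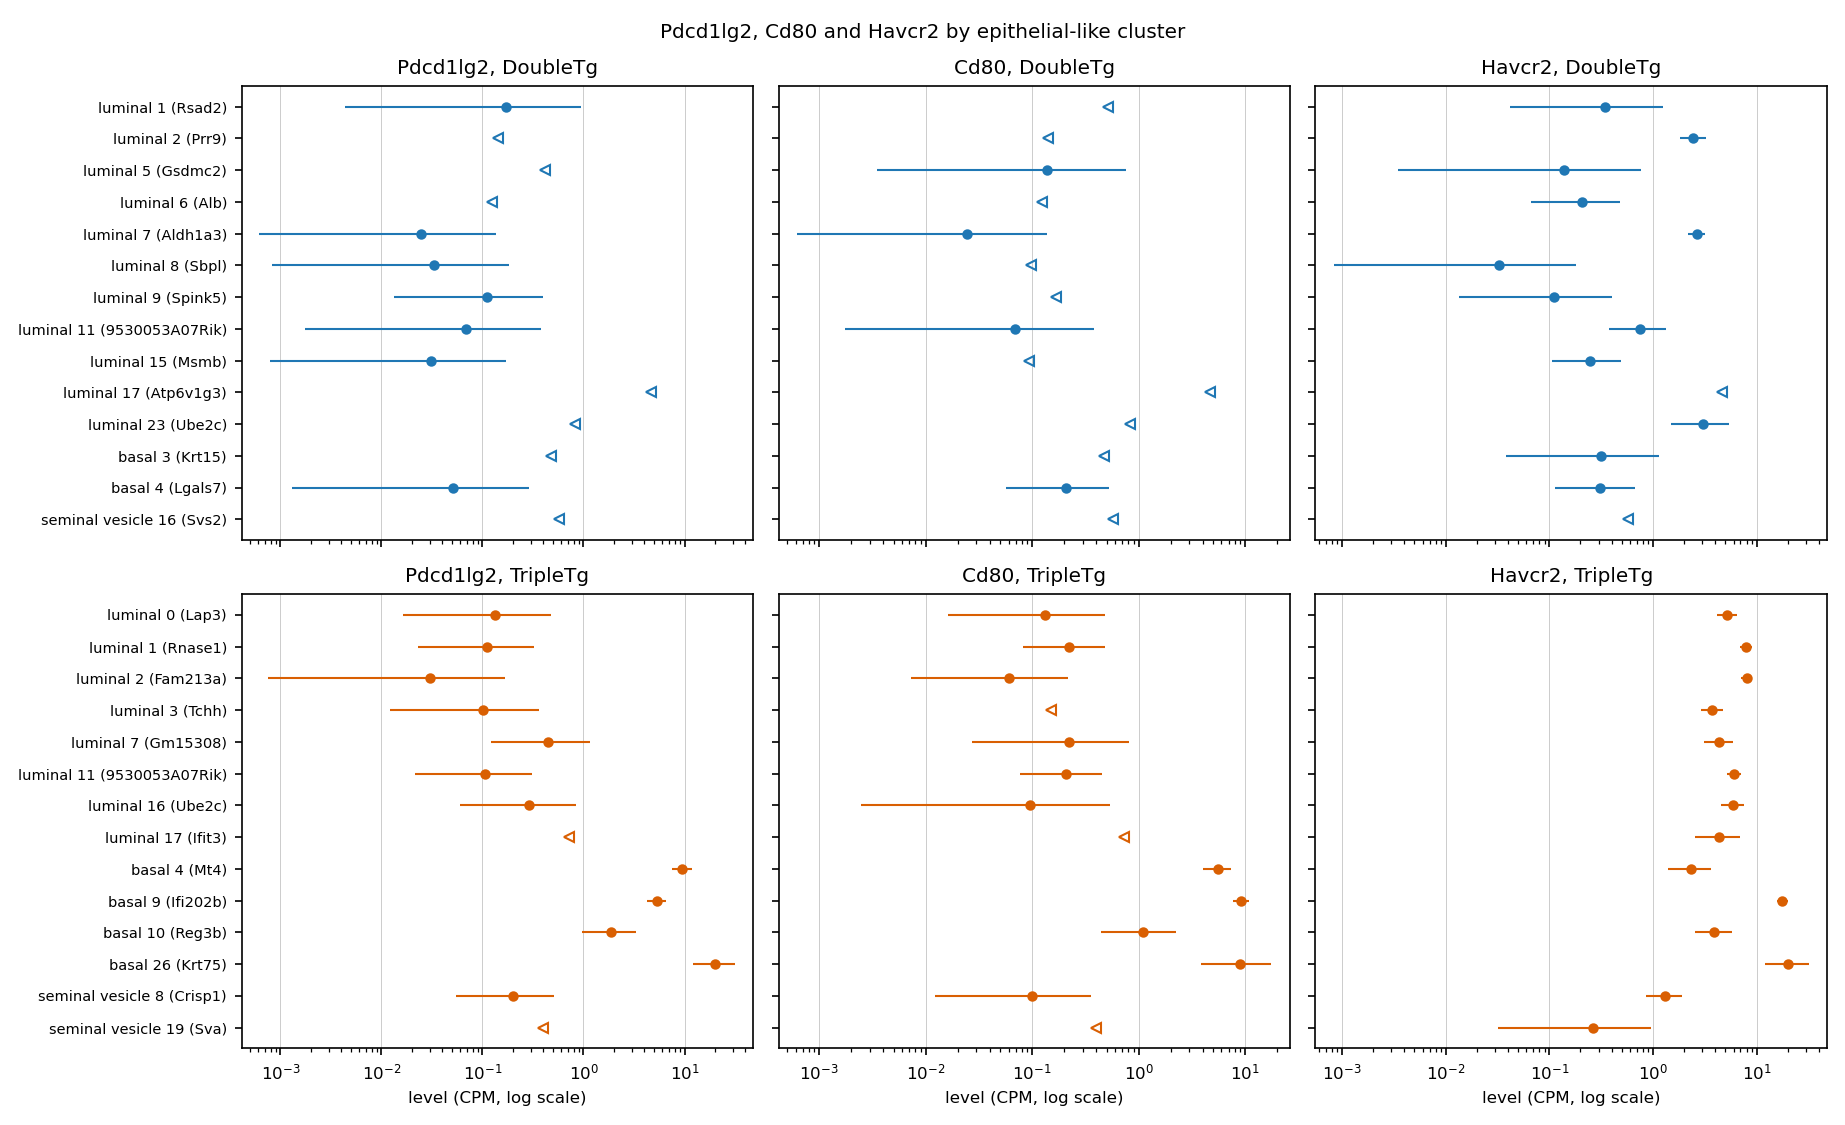
Level of Pdcd1lg2, Cd80 and Havcr2 (columns) in each epithelial-like cluster of DoubleTg (top) and TripleTg (bottom), in CPM on a log axis with exact 95% Poisson intervals. Open triangles mark a sum of 0 UMIs at the level of 3 counts. TripleTg basal clusters 4, 9 and 26 lie highest for Pdcd1lg2 and Cd80, at 5.30 to 20.2 CPM and 5.54 to 9.24 CPM, and clusters 9 and 26 for Havcr2, at 17.8 and 20.2 CPM.

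The next comparison concerned the myeloid cells, the main carriers of Cd274 and Cd86. Macrophage-like cells were identified by C1qa, C1qb, C1qc, Adgre1, Csf1r and Cd68, each in at least 50% of cells in both libraries. Cd86 was at 797 CPM (766 to 828) in DoubleTg and 279 CPM (264 to 293) in TripleTg macrophage-like cells, a log2 ratio of -1.52 (-1.61 to -1.42) or 2.86-fold lower. At 2000 UMIs per cell 75.6% (70.1 to 80.6) of 275 DoubleTg and 42.4% (37.7 to 47.3) of 429 TripleTg macrophage-like cells had a Cd86 UMI, and without thinning 97.1% and 87.9%. The median depths were close, at 10324 and 10034 UMIs.

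Other genes of the set were closer in these cells. Cd274 was at 218 CPM (202 to 234) in DoubleTg and 171 CPM (159 to 182) in TripleTg, and Havcr2 at 207 CPM (192 to 224) and 131 CPM (121 to 141), log2 ratios of -0.35 and -0.66. Cd80 was scarce and higher in TripleTg, with 4.34 CPM (2.37 to 7.28) in DoubleTg and 12 CPM (9.20 to 15.4) in TripleTg, a log2 ratio of 1.47 (0.62 to 2.42). Pdcd1lg2 had 5 and 19 UMIs, a log2 ratio of 1.25 (-0.22 to 3.02).

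Cd80 and Cd86, which share their receptors, were thus apart in opposite directions in macrophage-like cells. Of 5 genes with 30 UMIs, 1 was at least 2-fold higher in TripleTg (background 14.3% of 8266 genes) and 1 at least 2-fold lower (background 4.52%, 18.8% in all). Cd80, the higher gene, had 14 and 62 UMIs and reached 30 in TripleTg alone. The median of all genes in this class was a log2 ratio of 0.24, and TMM scaling, which corrects for such a shift, placed Cd86 at -1.74, Havcr2 at -0.89 and Cd274 at -0.58.

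Dendritic-like cells, with Ccr7 and H2-DMb2 in at least 50% of cells in both libraries, carried all 4 ligands. Cd86 was at 669 CPM (630.5 to 709) in DoubleTg and 450.3 CPM (396 to 510.1) in TripleTg, and Cd274 at 331 CPM (304 to 359.6) and 222 CPM (185 to 266), both with a log2 ratio of -0.57. Cd80 was at 41 CPM (32 to 51.8) and 65.6 CPM (46 to 90.9), and Pdcd1lg2 at 46.9 CPM (37.2 to 58.4) and 58.3 CPM (39.9 to 82.4). None of the 5 genes with 30 UMIs was 2-fold apart, where 6.77% of 4386 genes were higher and 6.18% lower, 13% in all. As in the macrophage-like cells, Cd86, Cd274 and Havcr2 (349 and 292 CPM) were lower in TripleTg and Cd80 higher. The intervals of the 2 libraries overlapped for Havcr2 (322 to 379 and 248 to 341) and for Cd80, whereas those for Cd86 and Cd274 were apart. Overlap of 2 separate intervals does not show that a difference lies within counting error.

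Subsets of the dendritic-like cells shared many cells, so their values are not independent. In DoubleTg the 30 cells with at least 2 of Xcr1, Clec9a, Cadm1 and Naaa, genes of conventional type 1 dendritic cells, had 803 CPM (732 to 879.6) of Cd86, and the 67 cells with at least 2 of Ccr7, Fscn1, Cacnb3 and Ccl22, genes of migrating dendritic cells, had 694 CPM (648 to 742). The same subsets of TripleTg, 14 and 20 cells, had 308 CPM (240.2 to 389) and 336 CPM (274 to 409). The TripleTg cells with at least 2 of Cd209a, Clec10a, Mgl2 and Sirpa stood closer to DoubleTg, with 607 CPM (503 to 726) in 19 cells against 689.8 CPM (613 to 774) in 22 cells. Ido1, known from type 1 dendritic cells, had 2 UMIs in the 30 DoubleTg and none in the 14 TripleTg cells of that subset.

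Stromal cells, which line vessels and build connective tissue, also had Cd274. Endothelial-like cells had 46.3 CPM (37.8 to 56.2) in DoubleTg and 15.8 CPM (11.4 to 21.5) in TripleTg, and fibroblast-like cells 18.7 CPM (16 to 21.6) and 10.6 CPM (7.99 to 13.7). Cd274 was the only gene of the set with 30 UMIs in endothelial-like cells and was at least 2-fold lower, where 7.15% of 7595 genes were lower, 10.3% higher and 17.5% either. Of 3 such genes in fibroblast-like cells only Ido1 was at least 2-fold apart, and lower, where 6.02% of 10705 genes were lower, 7.66% higher and 13.7% either. Among these 6 classes the order of Cd274 levels in DoubleTg was therefore dendritic-like, macrophage-like, endothelial-like, T/NK-marked (32.1 CPM, 26.3 to 38.8), fibroblast-like and epithelial-like. The intervals of the endothelial-like and T/NK-marked cells overlapped, and all other neighbours in this order were apart. In TripleTg the order was dendritic-like, macrophage-like, endothelial-like, fibroblast-like, T/NK-marked (6.53 CPM, 3.65 to 10.8) and epithelial-like. There the dendritic-like and macrophage-like intervals were apart by 185 against 182 CPM, whereas those of endothelial-like, fibroblast-like and T/NK-marked cells overlapped with their neighbours.

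The study compared epithelial cells with and without the MET transgene, so Ido1 and Cd274 were also compared between luminal-like cells with and without an hMETtg UMI. The 4188 DoubleTg cells with hMETtg had 60.1 CPM of Ido1 and the 827 cells without it 13 CPM, a log2 ratio of 2.21 (2.05 to 2.37). The former were deeper, with a median of 37220 against 24816 UMIs. With each cell thinned to 5000 UMIs and left in its group, the log2 ratio over 4137 and 734 cells was 2.02 (1.63 to 2.44). Where the cells were instead grouped by the hMETtg UMIs left after thinning, 3291 against 1580 cells, it was 0.92 (0.72 to 1.12), since cells that lost their hMETtg UMI then counted as cells without it. Within clusters, at full depth, the ratio was 0.32, and Ido1 was higher in the cells with hMETtg in 6 of 8 clusters.

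In TripleTg the difference was small. The 1659 cells with hMETtg had 8.71 CPM of Ido1 and the 3142 cells without it 6.37 CPM, a log2 ratio of 0.45 (0.28 to 0.63) pooled and 0.28 within clusters, where 3 of 8 clusters were higher. At 5000 UMIs it was 0.70 (0.29 to 1.10) in the same groups and 0.49 (-0.12 to 1.05) after regrouping, where 492 of the cells kept an hMETtg UMI. Cd274 had no stable direction. In DoubleTg its log2 ratio was 1.54 (0.81 to 2.36) pooled, -0.08 (-1.36 to 1.47) at 5000 UMIs in the same groups and -1.26 within clusters, with 3 of 7 clusters higher. In TripleTg it was -0.07 (-0.42 to 0.28) pooled, -0.91 (-2.03 to 0.08) at 5000 UMIs in the same groups and 0.23 within clusters. A cell without an hMETtg UMI may still express the transgene.

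**Figure D4:**
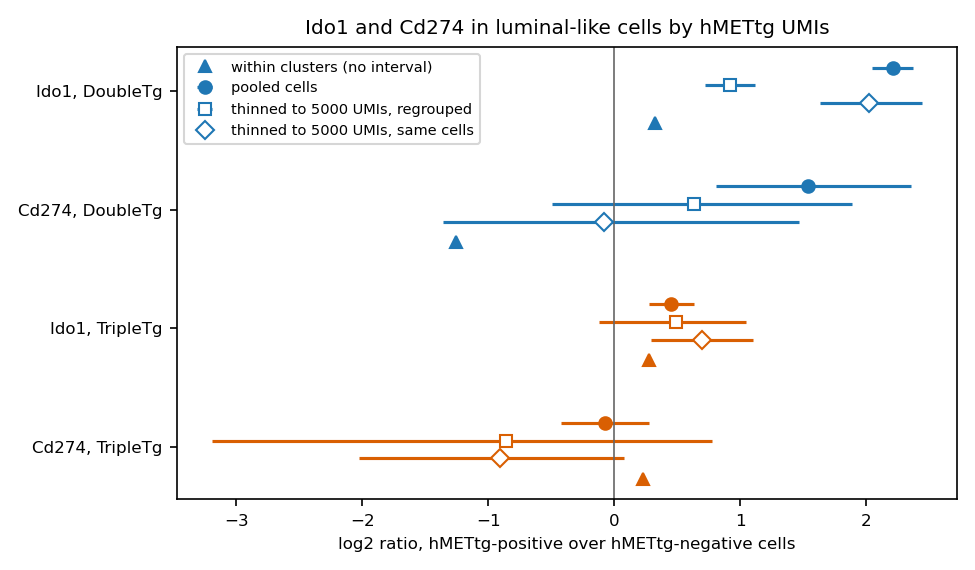
Log2 ratio of Ido1 and Cd274 between luminal-like cells with and without an hMETtg UMI in DoubleTg (blue) and TripleTg (orange). Circles are pooled cells, diamonds the same groups thinned to 5000 UMIs per cell and squares thinned cells regrouped by their remaining hMETtg UMIs, all with 95% intervals, and triangles are ratios within clusters with no interval. The DoubleTg Ido1 ratio is 2.21 pooled, 2.02 in the thinned groups, 0.92 after regrouping and 0.32 within clusters, and the DoubleTg Cd274 ratio turns from 1.54 to -1.26.

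The receptors were described in lymphoid cells. One cluster in each library was led by T and NK cell genes, with 437 DoubleTg cells (Cd3g, Gzma, Nkg7) and 132 TripleTg cells (Gzma, Ccl5, Gzmc). The TripleTg cluster also had the mast cell genes Tpsb2, Mcpt4 and Cma1 among its top 10 and took no name, so cells of both clusters with a UMI of at least 3 of 8 T/NK markers were compared and called T/NK-marked. They numbered 380 in DoubleTg and 108 in TripleTg, and 58 and 21 of them had exactly 3 markers, while 37 and 19 cells of the clusters had exactly 2.

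The T/NK-marked cells of the 2 libraries were not alike in purity. The DoubleTg cells were the shallower ones, with a median of 6546.5 UMIs against 19512. Averaged over 6 epithelial markers (Epcam, Krt8, Krt18, Krt19, Cdh1 and Cldn7), 55.1% of DoubleTg and 91.2% of TripleTg T/NK-marked cells had a UMI, and the 8 T/NK markers summed to 2399 and 595 CPM. Mast cell markers summed to 91.4 and 11.8 CPM, and to 96.2 and 328 CPM in the whole clusters. The receptors are therefore given both in CPM and per 1000 UMIs of the 8 T/NK markers, a scale chosen after these values had been seen. A mixture of lymphocyte and epithelial RNA in 1 barcode and a lower lymphocyte expression cannot be told apart by the first scale.

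Pdcd1 (PD-1), the receptor of Cd274 and Pdcd1lg2, was at 378 CPM (358 to 399.9) in DoubleTg and 35.7 CPM (28.4 to 44.3) in TripleTg T/NK-marked cells, a log2 ratio of -3.41 (-3.75 to -3.08). Per 1000 T/NK marker UMIs it was at 158 (149 to 167) and 59.9 (47.7 to 74.4), a log2 ratio of -1.40 (-1.74 to -1.07). Pdcd1 was thus lower in TripleTg on both scales, by 10.6-fold on the first. At 2000 UMIs per cell 41.7% (36.7 to 46.9) of 374 DoubleTg and 11.2% (5.93 to 18.8) of 107 TripleTg cells had a UMI, and without thinning 55% and 30.6%. Fibroblast-like cells had 0.393% and 0.184% at the same depth.

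Ctla4, the inhibitory receptor of Cd80 and Cd86, was at 155 CPM (142 to 169) and 45.7 CPM (37.4 to 55.3), a log2 ratio of -1.76 (-2.08 to -1.46). Per 1000 T/NK marker UMIs it was at 64.6 (59.1 to 70.4) and 76.8 (62.8 to 92.9), a log2 ratio of 0.25 (-0.07 to 0.55). The direction therefore turned with the scale, unlike that of Pdcd1, and the second interval included 0. The thinned share was 28.9% (24.3 to 33.8) in DoubleTg and 5.61% (2.09 to 11.8) in TripleTg.

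The remaining receptors were scarcer. Lag3 was at 35.4 CPM (29.3 to 42.4) and 4.79 CPM (2.39 to 8.57), with a log2 ratio of -0.88 (-1.92 to 0.02) per T/NK marker UMI. Tigit was at 17.9 CPM (13.6 to 23) and 5.66 CPM (3.01 to 9.67), with log2 ratios of -1.66 in CPM and 0.35 (-0.64 to 1.24) per T/NK marker UMI. Havcr2 was at 14.5 CPM (10.7 to 19.3) and 10.9 CPM (7.04 to 16.1), which are log2 ratios of -0.42 and 1.59 (0.83 to 2.32) on the 2 scales. Havcr2 was also present in other TripleTg classes, as given above for basal-like and luminal-like cells. TripleTg T/NK-marked cells carried RNA of epithelial markers, and whether their Havcr2 UMIs came from epithelial RNA was not tested.

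Of 7 genes of the set with 30 UMIs in T/NK-marked cells, 6 were at least 2-fold lower in TripleTg (Pdcd1, Ctla4, Lag3, Tigit, Cd274 and Pdcd1lg2), where 19.1% of 8074 genes were. None was at least 2-fold higher, against 13.7%, 32.8% in all being 2-fold apart. Here and in the whole clusters below, Lag3, Tigit, Cd274, Pdcd1lg2 and Havcr2 reached 30 UMIs in DoubleTg alone. None of them could thus come out 2-fold higher in CPM, whereas Pdcd1 and Ctla4 passed in both libraries. The median log2 ratio of the 7 was -1.76, beside -0.17 over all genes. On the scale of T/NK marker UMIs, which raised every log2 ratio by 2.01 and the median of all genes to 1.84, Pdcd1 was at least 2-fold lower, where 1.36% of the 8074 genes were, and Havcr2 at least 2-fold higher, where 81.1% were (82.4% in all). Havcr2 at 1.59 thus lay under the median gene on that scale. Whole clusters in place of the T/NK-marked cells gave Pdcd1 at 355 and 32.3 CPM and Ctla4 at 149 and 42.4 CPM, with 6 of 7 genes lower (19.2% of 8428 genes) and none higher (14.1%, 33.4% in all).

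**Figure D5:**
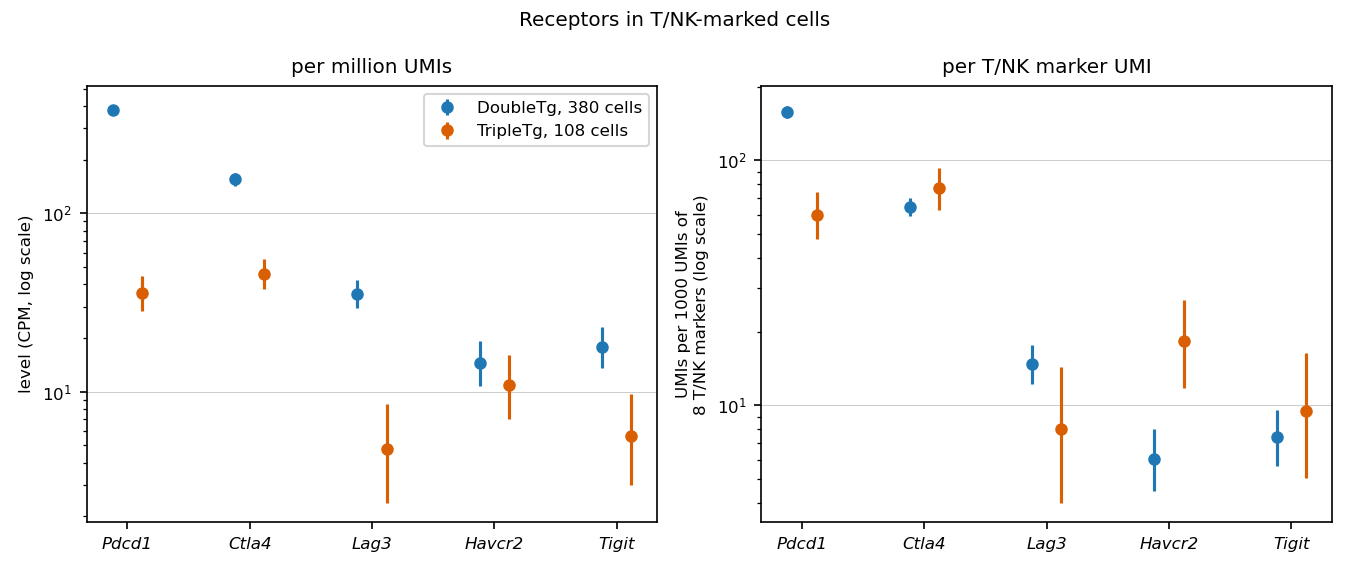
Level of the 5 receptors in 380 DoubleTg (blue) and 108 TripleTg (orange) T/NK-marked cells, per 1000000 UMIs (left) and per 1000 UMIs of 8 T/NK markers (right), on log axes with exact 95% Poisson intervals. Pdcd1 is lower in TripleTg in both panels (378 against 35.7 CPM, 158 against 59.9), while Ctla4 is lower in the left panel alone and Havcr2 is higher in the right panel.

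Subsets of the T/NK-marked cells were taken by a UMI of a defining gene, so a cell can be in several or none. In DoubleTg the 197 cells with Cd8a or Cd8b1, cytotoxic T cell genes, had Pdcd1 in 68.5% (61.5 to 74.9) and Ctla4 in 54.8% (47.6 to 61.9). The 32 cells with Cd4, the helper T cell gene, had Pdcd1 in 78.1% (60 to 90.7) and Ctla4 in 84.4% (67.2 to 94.7). By level Ctla4 was at 134 CPM (118 to 152) in the former and 419.9 CPM (348 to 502) in the latter. Lag3 and Havcr2 also had higher levels in Cd4 cells, 120.0 CPM (83.1 to 168) against 41.8 CPM (32.9 to 52.3) for Lag3 and 81.2 CPM (51.4 to 122) against 17 CPM (11.6 to 24.2) for Havcr2.

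The 34 DoubleTg cells with Ncr1 or Klrb1c, NK cell genes, differed from both. They had Pdcd1 in 20.6% (8.70 to 37.9) and no Havcr2 UMI, while the ligand Pdcd1lg2 was present in 35.3% (19.7 to 53.5), against 6.6% (3.56 to 11) of the Cd8 cells. Foxp3, which marks regulatory T cells, was found in 6 cells of each library, and all 6 had Ctla4 in both, at 760.3 CPM (576 to 985) in DoubleTg and 429.6 CPM (292 to 609.9) in TripleTg. These were the highest Ctla4 levels of any subset, with intervals that overlapped between the libraries.

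TripleTg subsets were small, and subset levels are given in CPM alone. The Cd8 cells had medians of 6659 UMIs in DoubleTg and 21548 in TripleTg, and the Cd4 cells 5652 and 18714.5. A mixture with epithelial RNA and a lower lymphocyte expression therefore cannot be told apart between the libraries here. The 47 cells with Cd8a or Cd8b1 had 42.5 CPM of Pdcd1 (31.6 to 56.1), against 488 CPM (457 to 521) in DoubleTg, and 23.8 CPM of Ctla4 (15.8 to 34.4). The 14 cells with Cd4 had 32.3 CPM (14.7 to 61.2) of Pdcd1, against 646 CPM (556 to 746), and 143 CPM (102 to 195) of Ctla4. Cells with Cd4 thus had more Ctla4 than cells with Cd8 genes in both libraries.

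Receptors were often found together. In DoubleTg 124 of 380 T/NK-marked cells had both Pdcd1 and Ctla4, where the product of shares gives 109, and 24 of the 27 cells with Havcr2 had Pdcd1. Of the 380 cells, 78 had none of the 5 receptors, 146 had 1, 84 had 2, 56 had 3, 12 had 4 and 4 had all 5. In TripleTg 38 of 108 cells had none, 40 had 1, 18 had 2, 8 had 3 and 4 had 4, and 20 had both Pdcd1 and Ctla4, where the product gives 13.4. A receptor without a UMI may still be expressed in either library. The DoubleTg cells were shallower in all UMIs, but the 8 T/NK markers had 7926 UMIs in the 380 DoubleTg and 1368 in the 108 TripleTg cells. Total depth therefore does not show in which library more receptors were missed.

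Further genes of the pathways were counted from lists, at least 2-fold apart and with 30 UMIs in 1 library. Of 13 further checkpoint ligands in epithelial-like cells, 4 were higher and 3 lower in TripleTg, beside the 17.7% and 15.6% of all genes. The higher ones were led by Tnfsf4 (OX40 ligand, log2 ratio 3.84, 3.65 to 4.04), Tnfsf9 (4-1BB ligand, 3.20, 2.98 to 3.42) and Vsir (VISTA, 1.61, 1.14 to 2.10). The lowest were Ceacam1, an adhesion molecule and ligand of Havcr2, at 495 CPM in DoubleTg and 64.9 CPM in TripleTg (-2.93, -2.96 to -2.91), Icosl (ICOS ligand, -1.99) and Tnfrsf14 (-1.47).

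In macrophage-like cells 2 of 10 of these ligands were higher, beside 14.3% of all genes, and 4 lower, beside 4.52%. Tnfsf4 (2.74, 1.06 to 5.09), Cd200 (1.54) and Lgals9 (galectin-9, 0.89) had the highest log2 ratios, and Icosl (-3.38, -3.81 to -2.96), Tnfsf9 (-2.20) and Ceacam1 (-2.12) the lowest. Tnfsf9 was thus higher in TripleTg epithelial-like cells and lower in macrophage-like cells, whereas Tnfsf4 was higher and Ceacam1 and Icosl lower in both. In dendritic-like cells, where 2 of 7 were higher (6.77% of all genes) and 2 lower (6.18%), Tnfsf4 (2.72) and Cd200 (1.67) were again the highest, ahead of Cd47 (0.02), and Tnfsf9 (-2.03), Ceacam1 (-1.18) and Icosl (-0.89) the lowest.

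Of 12 tryptophan and kynurenine genes in epithelial-like cells, 3 were higher and 2 lower in TripleTg, shares near the 17.7% and 15.6% of all genes. Slc7a5, part of the large amino acid transporter that carries tryptophan, was at 4.87 CPM in DoubleTg and 30.7 CPM in TripleTg (2.66, 2.56 to 2.75), Tdo2, the other dioxygenase that opens the pathway, at 0.0957 and 0.2 CPM (1.06, 0.28 to 1.88), and Qprt, an enzyme at its end, had 0 and 33 UMIs, at least 3.62 higher on the log2 scale. The lowest were Kyat3 (-2.21, -2.45 to -1.99), a kynurenine aminotransferase, Wars (-1.99, -2.03 to -1.95), the tryptophanyl-tRNA synthetase, and Eif2ak4 (-0.81). Ido2, the paralogue of Ido1, was at 0.887 and 0.677 CPM (-0.39, -0.71 to -0.07), so its ratio was smaller than that of Ido1. The median of the 12 was -0.25. In macrophage-like cells 1 of 6 was higher (14.3% of all genes), Slc7a5 (1.40, 0.51 to 2.40), and 1 lower (4.52%), Il4i1 (-1.59, -2.56 to -0.66), another enzyme of aromatic amino acid breakdown. In dendritic-like cells 2 of 5 were lower (6.18% of all genes), Kynu (-1.75) and Il4i1 (-1.04), and none was higher (6.77%).

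None of 8 interferon-gamma path genes was 2-fold apart in epithelial-like cells, where 33.3% of all genes were. Ifngr2 (0.60), Socs1 (0.23) and Irf1 (0.18) had the highest log2 ratios and Nlrc5 (-0.86) and Ifngr1 (-0.19) the lowest. In macrophage-like cells none of 8 was higher (14.3% of all genes) and 2 were lower (4.52%), Ciita (-2.13, -2.83 to -1.48), the regulator of MHC class II genes, and Socs1 (-1.35), and Jak2 was at -0.85. Ifngr1 (0.47), Jak1 (-0.23) and Ifngr2 (-0.47) were the highest there.

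In T/NK-marked cells 9 of 10 further co-receptors were at least 2-fold lower in TripleTg on the CPM scale and none was higher, beside the 19.1% and 13.7% of all genes. Cd226 (-3.26), Cd160 (-3.17) and Cd244a (-3.04) were the lowest, and Tnfrsf4 (OX40, 0.25, -0.09 to 0.58), Tnfrsf18 (GITR, -1.52) and Cd28 (-1.98) the highest. Of 11 effector and dysfunction genes 6 were lower, led by Gzmb (granzyme B, -3.52, -3.85 to -3.20), Cxcr6 (-3.20) and Entpd1 (CD39, -2.90), and 1 was higher, Tnf (2.10, 1.55 to 2.67), followed by Tcf7 (0.29) and Eomes (-0.14). Of 8 interferon-gamma path genes 6 were lower, with Ifng at 30 and 6.09 CPM (-2.30) beside Ifngr1 (-2.18) and Socs1 (-1.92), and Ifngr2 was higher (1.68), ahead of Jak2 (-0.05) and Irf1 (-1.01). Log2 ratios of these lists carry the same difference in T/NK marker level, 2399 against 595 CPM, as those of the receptors. Among the genes named here, Cd226, Cd160, Cd244a, Entpd1, Ifng and Socs1 reached 30 UMIs in DoubleTg alone and could not come out 2-fold higher.

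Over the 52 clusters of both libraries, the genes with a pattern most like Ido1 by Pearson correlation of log2(CPM + 1), among 7263 genes with at least 50 CPM in 1 cluster, were Clu (0.77), Sectm1b (0.75) and Vill (0.72). Those most like Cd274 were Tnfrsf1b, a TNF receptor, Wipf1 and Arl5c (0.83, 0.83 and 0.82). Ido1 and Cd274 themselves had a correlation of -0.06, although the interferon-response clusters were the highest epithelial-like clusters for both. Cd274 and Cd86 had 0.75. The clusters share libraries and differ in depth, so these are descriptions.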

How the data were processed

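The authors deposited 1 table of raw UMI counts per library, made from 10x Genomics 3′ v3 reads with Cell Ranger on mm10 with added transgene sequences. The processing notes name Cell Ranger 6.0.2 and the header of the DoubleTg matrix 6.1.1. These counts were used as deposited. The filter of the study's methods (more than 200 but fewer than 7000 genes, mitochondrial share of UMIs below 15%) left 10598 of 12072 DoubleTg and all 9492 TripleTg cells. Both DoubleTg numbers differ from those given in the study's methods, and the TripleTg table as deposited held only cells within the limits. The total was 256880958 and 229655259 UMIs. Gene positions are from GENCODE on GRCm38.

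Each library was clustered alone with Scanpy 1.11.5 (Python 3.11.15, numpy 2.4.6, scipy 1.17.1): log counts per 10000 UMIs, 2000 variable genes, 20 components, 15 neighbours and Leiden resolution 1, leaving out 72 genes, the 10 genes described and 62 genes of related lists. A non-epithelial cluster took a name where the mean log2 excess of that type's markers was at least 2, with 3 markers raised, and led the next type by 1.5. Epithelial clusters were named from the share of cells with each marker. Luminal-like clusters needed 4 of 10 luminal markers in at least 50% of cells. That minimum was lowered from 5 after TripleTg clusters had been seen to miss it. At 5 markers 238 of the 4801 TripleTg and all 5015 DoubleTg luminal-like cells kept the name. The TripleTg luminal-like values therefore depend on the change, while the epithelial-like results do not. Scrublet marked 273 DoubleTg cells and no TripleTg cell, so doublets were not removed. Shares were compared after thinning each cell to 2000 UMIs.

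Levels carry exact Poisson intervals, shares exact binomial (Clopper-Pearson) intervals and ratios conditional exact binomial intervals, all at 95%. A gene at 0 in 1 library was set to 3 counts for a bound, while sums of 1 or 2 UMIs, for which a bound had also been planned, were kept with their interval. No p-value was computed, since each genotype is 1 library. Within-cluster ratios are Mantel-Haenszel rate ratios over clusters with at least 20 cells on each side and 3 UMIs. edgeR 4.0.16 (R 4.3.3) gave TMM factors as an alternative. All 10 genes are named. Of each list the 3 highest and 3 lowest ratios among genes with at least 30 UMIs are named, with Ido2 and Il4i1 beside them, and the 3 genes most like Ido1 and Cd274. Genes that head a cluster are its leading ones by fold. Members and lists were chosen with earlier results of these data known, and list genes with older symbols were matched by Ensembl identifier.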

Additional observations from a re-analysis of the deposited data

How the results depend on the processing

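No paired analysis was possible because each genotype is 1 library and no test was made. Of 263 recomputed ratios, levels and shares 213 stayed within the interval of the reported value, 45 left it and 5 turned a ratio whose interval had excluded 0. A further 5 values changed sign where the reported interval included 0. These were macrophage-like Ido1 (0.64 to -1.48, -2.37 to -0.64, at Leiden resolution 0.5 and to -0.82 without the highest doublet scores), dendritic-like Pdcd1lg2 (0.32 to -0.01 with TMM factors), TripleTg Cd274 by hMETtg within clusters (0.23) and T/NK-marked Havcr2 (below). Of 48 recomputed counts of genes 41 were within 1.5 times the reported count and 7 were not. Leaving out the cell filter changed DoubleTg alone. For Ido1 in epithelial-like cells the log2 ratio of TripleTg over DoubleTg was -3.05 without the cell filter (DoubleTg level 53.1 CPM), -2.48 at 5000 UMIs per cell and -2.59 without the interferon-response clusters. That of Cd274 there was 0.54 at 5000 UMIs and 1.83 without those clusters. At Leiden resolution 0.5 the macrophage-like ratios were -0.19 for Cd274 and -1.30 for Cd86, and 4 genes of the set were 2-fold apart, against 2. The share of all genes at that resolution was not counted. With TMM factors macrophage-like Cd274 was at -0.58 and Cd86 at -1.74, and dendritic-like Cd274 at -0.90 and Cd86 at -0.89. At 5000 UMIs the Cd86 ratio was -1.42 for macrophage-like and -0.32 for dendritic-like cells, and Ctla4 was at -1.24 in T/NK-marked cells. Per UMI of the T/NK markers Pdcd1 was at -1.40, and 2 receptors were 2-fold apart, where 82.4% of 8074 genes were. Ctla4, Tigit and Havcr2 turned to 0.25, 0.35 and 1.59. With the top 5% of doublet scores left out, DoubleTg levels were 201 CPM for Cd274 and 744 CPM for Cd86 in macrophage-like cells (Cd86 ratio -1.41) and 480.1 CPM for Pdcd1 and 206 CPM for Ctla4 in T/NK-marked cells.

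The share of cells with a UMI is larger at greater depth by construction. At 5000 UMIs and without thinning it was 8.52% and 20.6% (DoubleTg) and 2.39% and 7.79% (TripleTg) for epithelial-like Ido1, 92.8% and 97.1% (DoubleTg) and 67.8% and 87.9% (TripleTg) for macrophage-like Cd86, 48.7% and 55% for DoubleTg Pdcd1, and 30.6% without thinning for TripleTg Pdcd1. The ratio by hMETtg at 5000 UMIs, with the groups kept and with the cells regrouped after thinning, was 2.02 and 0.92 for DoubleTg Ido1, -0.08 and 0.63 for DoubleTg Cd274, and -0.91 and -0.86 for TripleTg Cd274, and 0.70 with the groups kept for TripleTg Ido1. Within clusters it was 0.32 for DoubleTg Ido1 and -1.26 for DoubleTg Cd274, and -0.97 for TripleTg Ido1 in the 238 cells of the cluster with 5 luminal markers (7 and 21 UMIs). At 4-fold 3 further ligands and 3 tryptophan genes were apart in epithelial-like cells, and at 1.5-fold 2 interferon-gamma path genes. The share of all genes was counted at 2-fold only, so these counts cannot be set beside it. By Spearman correlation 1 of the 3 genes most like Ido1 and 1 of the 3 most like Cd274 stayed in place. The cause of these shifts was not tested beyond what each setting changes.

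The planned removal of Scrublet doublets was not run, since no TripleTg cell was marked. The doublet score limit, whole T/NK clusters, the T/NK marker scale, the thinning with hMETtg groups kept, the 5 luminal markers and the removal of the interferon-response clusters were chosen after seeing the data. TripleTg T/NK-marked cells, dendritic subsets and any gene under 30 UMIs are limited by counting depth, and differences between animals were not measured.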
